A study of Mus musculus with 79 samples.

Results

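The aryl hydrocarbon receptor gene Ahr, its partner gene Arnt, its repressor gene Ahrr and 3 genes that the receptor is known to switch on, Cyp1a1, Cyp1b1 and Tiparp, were followed through mouse Th17 cells cultured with EGCG or DHEA. These 6 genes, listed as AHR, ARNT, AHRR, CYP1A1, CYP1B1 and TIPARP, were chosen by name and are 6 of the 20465 gene symbols in the table of transcript levels. T cells had been loaded with CFSE, a dye that each division dilutes, and cultured with IL1b, IL6 and IL23 for pathogenic Th17 cells (Th17p) or with TGFb and IL6 for non-pathogenic ones (Th17n). The 8 compound groups received EGCG (epigallocatechin gallate, a catechin of green tea) at 20 uM or DHEA at 50 uM, and the 8 solvent groups received DMSO, set here against EGCG, or methanol, set here against DHEA. Each of the 16 groups holds libraries either from cells sorted after 1 division (Div.1) or from all cells without sorting (Total). The series describes 5 mice per condition, but the labels tie no library to a mouse and no Div.1 library to a Total library of the same culture, and the strain, age and sex of the mice are not given in the sources used here. The cells were T cells differentiated in culture, so all groups share the activation and the dye.

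The receptor is a transcription factor that waits in the cytoplasm, bound to chaperones, until a small molecule ligand binds it. It then moves to the nucleus, pairs with ARNT and binds DNA at a short core motif, where it switches on the cytochrome P450 genes Cyp1a1 and Cyp1b1, whose enzymes oxidise many of its ligands, and the genes of its own brakes, Ahrr and Tiparp. In T cells Ahr is best known from Th17 cells made with TGFb and IL6, in which its ligands raise the cytokine IL22.

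On mm10, Ahr lies at chr12:35497974-35535038 on the minus strand, Ahrr at chr13:74211118-74292331 on the minus strand and Arnt at chr3:95434388-95497240 on the plus strand. Cyp1a1 lies at chr9:57687928-57703824 on the plus strand, Cyp1b1 at chr17:79701537-79715061 on the minus strand and Tiparp at chr3:65528410-65555518 on the plus strand. The levels are sums over each gene's transcripts, so no exon or UTR is told apart. The strand setting of the quantification is not given in the sources used here, so reads of overlapping genes could be mixed for 3 of the 6. Ahr overlaps the lincRNA Gm48236 on the opposite strand, Arnt the processed pseudogene Gm42672 on the same strand, and Tiparp the pseudogene 4931440P22Rik on the opposite strand.

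The promoters of the 4 target genes are shown because these genes moved apart from one another with the compounds. They are RefSeq sequences of 300 bases on GRCm38.p6, each read 5′ to 3′ on the gene's own strand from 250 bases before the start site to 50 after it. Capitals mark GCGTG, the core motif of the AHR and ARNT pair, or its reverse complement CACGC.
Cyp1a1, chr9:57697363-57697662, plus strand: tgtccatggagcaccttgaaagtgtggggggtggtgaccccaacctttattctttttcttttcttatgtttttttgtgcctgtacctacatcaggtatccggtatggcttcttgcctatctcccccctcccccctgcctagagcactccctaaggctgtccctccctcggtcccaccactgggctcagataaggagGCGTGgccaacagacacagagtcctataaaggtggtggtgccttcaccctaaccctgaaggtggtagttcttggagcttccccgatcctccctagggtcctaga
Cyp1b1, chr17:79715012-79715311, minus strand: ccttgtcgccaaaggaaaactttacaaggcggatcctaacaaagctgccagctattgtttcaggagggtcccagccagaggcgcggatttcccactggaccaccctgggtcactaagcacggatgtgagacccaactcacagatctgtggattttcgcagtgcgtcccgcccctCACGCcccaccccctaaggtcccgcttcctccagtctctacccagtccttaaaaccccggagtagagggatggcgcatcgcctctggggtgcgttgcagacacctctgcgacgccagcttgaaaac
Tiparp, chr3:65528197-65528496, plus strand: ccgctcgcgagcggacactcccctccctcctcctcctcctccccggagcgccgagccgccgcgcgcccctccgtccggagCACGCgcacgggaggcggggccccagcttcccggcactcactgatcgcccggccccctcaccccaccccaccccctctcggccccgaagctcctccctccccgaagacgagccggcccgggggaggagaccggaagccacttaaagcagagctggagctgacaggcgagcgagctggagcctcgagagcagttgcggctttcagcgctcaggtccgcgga
Ahrr, chr13:74292282-74292581, minus strand: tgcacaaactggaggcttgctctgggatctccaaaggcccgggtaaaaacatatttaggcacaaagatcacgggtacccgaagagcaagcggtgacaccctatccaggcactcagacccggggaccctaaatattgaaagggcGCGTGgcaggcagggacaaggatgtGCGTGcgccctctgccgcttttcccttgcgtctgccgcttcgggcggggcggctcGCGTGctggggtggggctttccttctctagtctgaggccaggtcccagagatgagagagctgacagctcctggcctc
Symbols matched a promoter for 5 of the 6 genes, all but Ahr. GCGTG on either strand stood once in the windows of Cyp1a1, with its first base at -54 from the start site, Cyp1b1 at -76, Tiparp at -170 and Arnt at -29, and 3 times in that of Ahrr, at -107, -82 and -27. Among 32841 mouse promoters of the same length, 32.4% held the motif at least once and 11.1% at least 2 times. The longer TNGCGTG, which contains GCGTG, stood in the window of Ahrr alone among these 5 genes and in 5.07% of all promoters. A match describes the letters of these windows and shows no binding.

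Levels are in TPM, transcript abundances scaled for transcript length and library size, so they can be set side by side between genes. The 78 libraries used fell into 16 groups of 5, except the Th17p and Th17n DMSO Div.1 groups with 4 each. Column sums ran from 880077 to 895017 TPM and 9338 to 9845 genes reached 1 TPM in a library. TPM keep no read numbers, so the depth is unknown and a low level carries no counting interval. The library in well A4 carries the label Th17n DMSO Div.1 in a plate row that otherwise holds Th17p DMSO Div.1, and was left out. Its Ahr level, given under Other observations, lay far below the other libraries of its label. Calls that change with it added are to be read with that limit. In comparisons that do not use the Th17n DMSO Div.1 group, A4 leaves the log2 change as it is. There it enters only through the spread estimated over all 16 groups. Well columns 6 and 7 hold DHEA and methanol cultures of all kinds. Their Th17n Total libraries with methanol stood apart from columns 8 to 10 in several of the 6 genes, for example Cyp1a1. With DHEA in Th17n cells, Cyp1a1 in column 7 lay inside the range of columns 8 to 10 in both sorts. Results that rest on columns 6 and 7 are also given without them. The T cell genes Cd3e, Cd3d, Cd3g and Cd4 were detected in every library, between 67.9 TPM for Cd4 and 592 TPM for Cd3d, and the Th17 cytokine gene Il17f lay between 96.7 and 8147 TPM. Summed markers of myeloid cells stayed at or below 0.527 TPM, those of fibroblasts at or below 0.433 TPM and those of B cells at or below 5.11 TPM in every library. Those of CD8 T and NK cells reached 45.8 TPM and the epithelial pair Epcam and Krt8 13.3 TPM, nearly all of it Epcam. Of the CD8 T and NK cell markers, Cd8a stayed at or below 0.557 TPM and Ncr1 at or below 0.084 TPM in every library.

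The genes fell into 3 kinds by level. Arnt and Tiparp were at or above 1 TPM in all 78 libraries. Ahr and Cyp1a1 were at or above 1 TPM in all 39 Th17n libraries but in only 15 and 14 of the 39 Th17p libraries. Ahrr and Cyp1b1 reached 1 TPM in 25 and 30 Th17n libraries and in none of the 39 Th17p libraries. All 6 passed the filter on low levels, 1 TPM in at least 4 libraries, 4 of them in each cell type and Ahrr and Cyp1b1 through Th17n libraries alone.

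**Figure D1:**
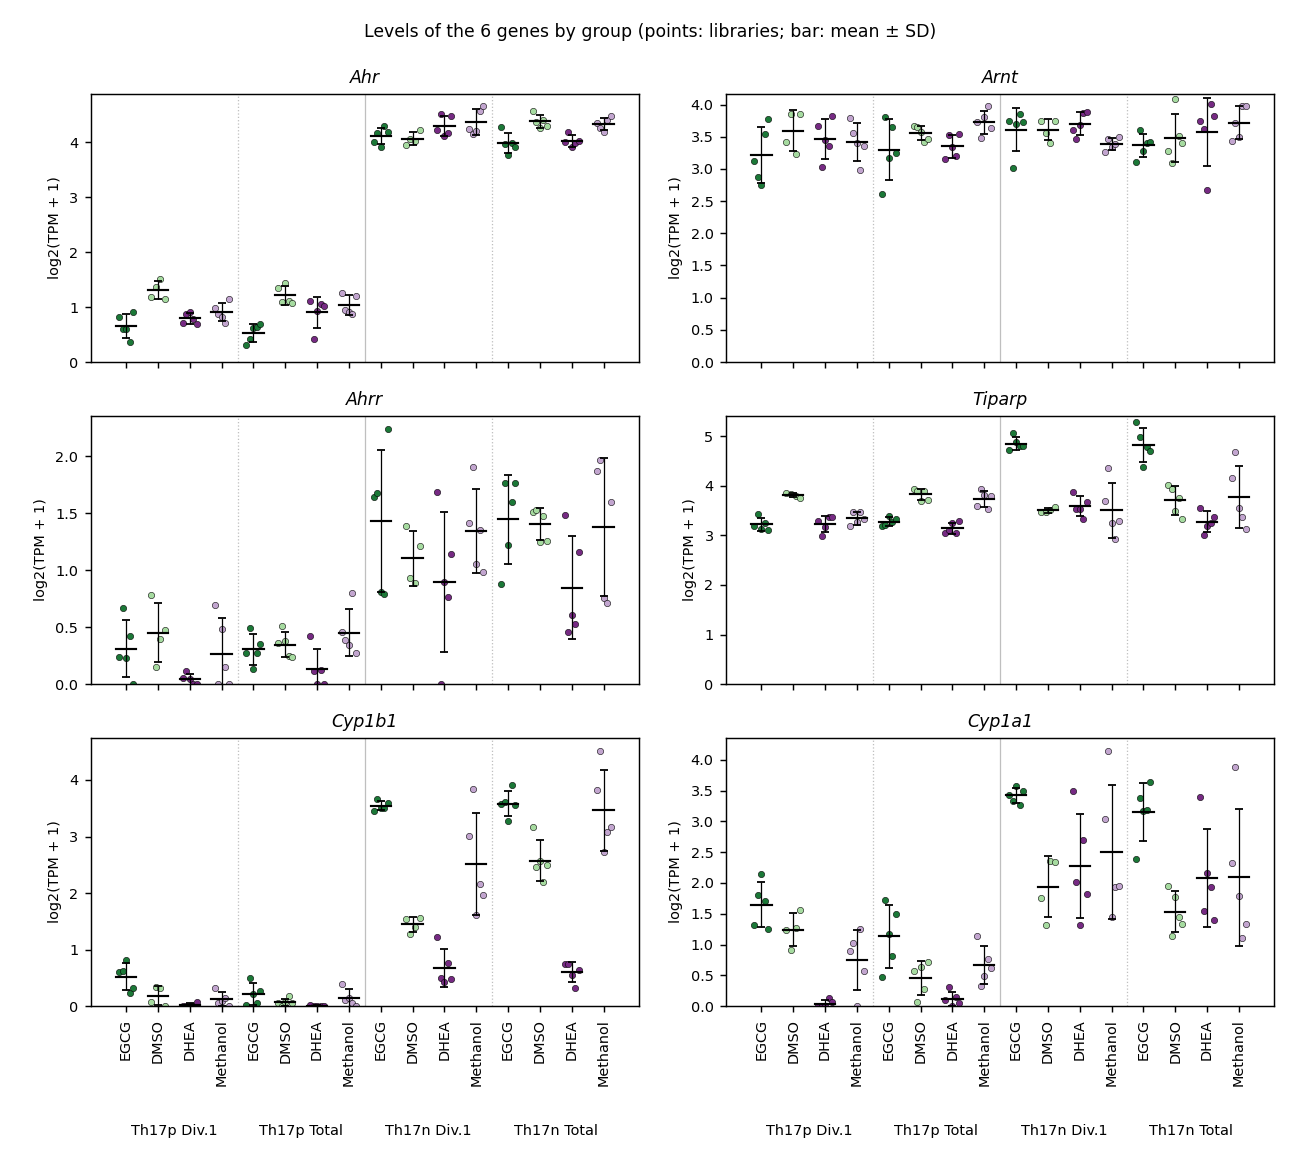
Levels of the 6 genes as log2(TPM + 1), 1 point per library, by cell type, sort and culture, with bars at the mean ± SD of each group (n = 5, or 4 for DMSO Div.1). Ahr separated Th17n from Th17p cells without overlap, Arnt varied little between groups, and the EGCG groups of Th17n cells had the highest Tiparp means, 27.9 TPM each.

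Th17p cells held far less receptor transcript than Th17n cells. In the solvent groups of Total cells, Ahr was at 1.55, 1.14, 1.71, 1.16 and 1.10 TPM in Th17p with DMSO and at 1.4, 0.932, 0.887, 0.836 and 1.30 TPM in Th17p with methanol. In Th17n, Ahr was at 22.6, 19.8, 18.2, 20.3 and 18.6 TPM with DMSO and at 19.4, 18.2, 17.3, 20.2 and 21.2 TPM with methanol. Every Th17p library lay below every Th17n library, and the mean in Th17p was 0.0669 times that in Th17n with DMSO and 0.0556 times with methanol. In bulk RNA, fewer cells with the transcript and less transcript per cell cannot be told apart. Of the 4 genes that passed the filter in each cell type, 2 were called in Total and 2 in Div.1 cells over both solvents, Ahr and Cyp1a1 in each, both lower in Th17p, where 57.4% and 60.6% of the 10672 genes tested were called in either direction. The epithelial marker sum also differed, at 1.21 to 2.29 TPM in Th17p and 3.23 to 6.22 TPM in Th17n Total cells with DMSO, with Krt8 at 0 in every library of both groups, and its part in these differences was not tested.

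For Ahr the change was -3.23 (SE 0.08, adjusted p = 1.71e-46) on the log2(TPM + 1) scale in Total and -3.11 (SE 0.08, adjusted p = 7.96e-44) in Div.1 cells. On this scale the change of a low gene is understated, and all adjusted p values are from limma with Benjamini-Hochberg adjustment over the 10672 genes. Cyp1a1, the classical read-out of the receptor, was lower too, with changes of -1.25 (SE 0.25, adjusted p = 1.61e-05) and -1.23 (SE 0.27, adjusted p = 5.46e-05). Arnt changed by 0.04 (95% interval -0.22 to 0.31) and 0.00 (-0.28 to 0.29), neither past the threshold. Cyp1b1, an enzyme gene, and Ahrr, whose protein competes with the receptor for ARNT, were kept by the filter for their Th17n levels, so their difference between the cell types is described without a test. In Total cells Cyp1b1 ran from 0 to 0.131 TPM in Th17p with DMSO and from 0 to 0.32 TPM in Th17p with methanol, against 3.56 to 7.95 TPM in Th17n with DMSO and 5.63 to 21.9 TPM in Th17n with methanol. Ahrr ran from 0.182 to 0.423 TPM in Th17p, against 1.38 to 1.89 TPM in Th17n Total cells with DMSO, and from 0.206 to 0.74 TPM in Th17p, against 0.634 to 2.90 TPM in Th17n Total cells with methanol. The Ahrr ranges of the cell types overlapped with methanol and not with DMSO.

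Tiparp, whose protein (PARP7) marks the receptor with ADP-ribose and dampens it, did not follow its receptor between the cell types. It averaged 13.2 ± 1.14 TPM in Th17p and 12.3 ± 2.65 TPM in Th17n Total cells with DMSO (SD, n = 5 each). Over both solvents its change was 0.04 (95% interval -0.20 to 0.27, adjusted p = 0.803) in Total and 0.07 (-0.18 to 0.32, adjusted p = 0.654) in Div.1 cells. Without well columns 6 and 7 it was 0.24 (adjusted p = 0.0221) and 0.25 (adjusted p = 0.0233), which passed the threshold as higher in Th17p.

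EGCG went with different changes in the 2 cell types. In Th17p cells with EGCG, Ahr and Tiparp fell in both sorts. In Th17n cells with EGCG, Cyp1a1, Cyp1b1 and Tiparp rose in both sorts, and Ahr was not called higher in either. The counts were 2 of 6 genes called in Th17p Total and 2 of 6 in Th17p Div.1 cells, where 44.9% and 45.6% of all genes tested were called in either direction. In Th17n Total cells 4 of 6 were called, 3 higher and 1 lower, beside 35.2% of all genes, and in Th17n Div.1 cells 3 of 6, all higher, beside 34.9%. In Th17p cells the count alone is no result about these genes, since Ahrr and Cyp1b1 reached 1 TPM in no Th17p library. Of the 4 genes that passed the filter in each cell type, 2 were called in each sort of Th17p cells, Ahr and Tiparp.

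In Th17p Total cells, Ahr was at 0.241, 0.333, 0.538, 0.557 and 0.609 TPM with EGCG, against 1.55, 1.14, 1.71, 1.16 and 1.10 TPM with DMSO. In Th17p Div.1 cells it was at 0.763, 0.511, 0.510, 0.294 and 0.886 TPM with EGCG, against 1.28, 1.59, 1.85 and 1.23 TPM with DMSO. Every EGCG library lay below every DMSO library in both sorts, at levels near or under 1 TPM. The mean with EGCG was 0.342 times that with DMSO in Total and 0.399 times in Div.1 cells. The log2 changes were -0.68 (SE 0.11, adjusted p = 4.47e-07) and -0.65 (SE 0.12, adjusted p = 4.43e-06). The sum of the Th17 markers Il17a, Il17f, Ccr6 and Il23r, 4 of 4 in the table, moved with Ahr. It ran from 122 to 390.2 TPM with EGCG, against 1928 to 2780 TPM with DMSO in Th17p Total cells. Over all libraries Il17f reached 8147 TPM, against at most 549 TPM for Il17a, 41.3 TPM for Ccr6 and 28.4 TPM for Il23r. The sum mainly follows Il17f and says little about the others. Summed T cell markers, 4 of 5 in the table, ran from 1085 to 1185 TPM with EGCG, against 743 to 761 TPM with DMSO in the same cells. Summed CD8 T and NK cell markers, 5 of 5 in the table, ran from 19.3 to 31.7 TPM with EGCG, against 9.57 to 14.8 TPM with DMSO. Ncr1 was at 0 in every library of both groups and Cd8a at or below 0.557 TPM. None of these 3 sums overlapped between the groups, and their part in the changes of Ahr and Tiparp was not tested.

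Tiparp fell to 8.15, 8.21, 9.42, 8.65 and 9.11 TPM in Th17p Total cells with EGCG, against 14.3, 13.9, 11.9, 13.9 and 12.1 TPM with DMSO. In Th17p Div.1 cells it was at 8.11, 9.82, 7.68, 8.54 and 7.57 TPM with EGCG, against 13.4, 13.3, 12.8 and 12.5 TPM with DMSO. Again no EGCG library reached the lowest DMSO library. The means with EGCG were 0.659 times those with DMSO in Total and 0.641 times in Div.1 cells, and the log2 changes were -0.55 (SE 0.17, adjusted p = 0.00541) and -0.59 (SE 0.18, adjusted p = 0.00467).

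Cyp1a1 stood higher in most Th17p libraries with EGCG, without passing the threshold. It was at 0.386, 2.29, 1.24, 0.757 and 1.82 TPM in Th17p Total cells with EGCG, against 0.482, 0.0477, 0.557, 0.219 and 0.643 TPM with DMSO, and the ranges overlapped at 1 EGCG library. Its log2 change of 0.68 (95% interval -0.03 to 1.39, adjusted p = 0.115) did not pass the threshold, but with a pseudocount of 0.1 TPM it was 1.52 (adjusted p = 0.0195). Cyp1b1 stayed at or below 0.757 TPM in every Th17p library with EGCG and at or below 0.26 TPM in every one with DMSO, and with a pseudocount of 0.1 TPM its change in Th17p Div.1 cells was called, at 1.28 (adjusted p = 0.00785).

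Cyp1b1 showed the largest log2 change with EGCG of the 6 genes in Th17n Div.1 cells. It was at 9.93, 11.6, 10.4, 10.3 and 11.1 TPM in Th17n Div.1 cells with EGCG, against 1.91, 1.42, 1.64 and 1.95 TPM with DMSO. In Th17n Total cells it was at 10.9, 11.1, 8.66, 14 and 10.8 TPM with EGCG, against 7.95, 4.48, 4.94, 3.56 and 4.65 TPM with DMSO. All EGCG libraries lay above all DMSO libraries in both sorts. The mean with EGCG was 6.16 times that with DMSO in Div.1 and 2.17 times in Total cells, with log2 changes of 2.10 (SE 0.23, adjusted p = 1.05e-11) and 1.01 (SE 0.21, adjusted p = 0.000128). Both sorts stood at a like level with EGCG, 10.7 ± 0.669 TPM in Div.1 and 11.1 ± 1.91 TPM in Total cells (SD, n = 5 each). With DMSO they stood apart, at 1.73 ± 0.249 TPM (SD, n = 4) in Div.1 and 5.11 ± 1.66 TPM (SD, n = 5) in Total cells. The change was larger in Div.1 than in Total cells by 1.09 (SE 0.31, adjusted p = 0.0113), beside 13.3% of all genes called in that difference. With a pseudocount of 0.1 TPM this difference was 1.43 (adjusted p = 0.0806). For Ahr it was 0.44 (adjusted p = 0.0534), which passed in a fit on these groups alone (adjusted p = 0.047) and with the A4 library added (0.97, adjusted p = 0.0252).

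Cyp1a1 was at 9.81, 9.11, 10.9, 8.63 and 10.3 TPM in Th17n Div.1 cells with EGCG, against 2.37, 1.5, 4.1 and 4.05 TPM with DMSO. In Th17n Total cells it was at 4.25, 9.37, 8.03, 8.05 and 11.5 TPM with EGCG, against 2.88, 1.2, 2.43, 1.72 and 1.51 TPM with DMSO. The groups did not overlap in either sort, and the means with EGCG were 3.24 times those with DMSO in Div.1 and 4.23 times in Total cells. The log2 changes were 1.48 (SE 0.38, adjusted p = 0.00127) and 1.62 (SE 0.35, adjusted p = 0.000207).

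Tiparp was at 25.3, 32.3, 28.5, 26.8 and 26.7 TPM in Th17n Div.1 cells with EGCG, against 10.1, 10.03, 10.4 and 10.96 TPM with DMSO. In Th17n Total cells it was at 38.2, 30.4, 19.7, 26.5 and 24.8 TPM with EGCG, against 15.3, 14.3, 10.3, 12.4 and 8.99 TPM with DMSO. These 2 EGCG groups held the highest Tiparp means of all 16 groups, 27.9 ± 2.70 TPM in Div.1 and 27.9 ± 6.91 TPM in Total cells (SD, n = 5 each). The log2 changes were 1.35 (SE 0.18, adjusted p = 5.62e-09) in Div.1 and 1.12 (SE 0.17, adjusted p = 1.95e-07) in Total cells. Rescaling the libraries by their median ratio shifted the median of all genes by -0.11 in Th17n Div.1 and -0.10 in Th17p Div.1 cells. On that scale Tiparp changed by 1.22, Cyp1b1 by 2 and Cyp1a1 by 1.38 in Th17n Div.1 cells, and Ahr by -0.69 and Tiparp by -0.70 in Th17p Div.1 cells.

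The receptor transcript was not called higher with its targets in Th17n cells. Ahr was at 18.5, 14.8, 12.6, 14.8 and 14.1 TPM in Th17n Total cells with EGCG, against 22.6, 19.8, 18.2, 20.3 and 18.6 TPM with DMSO, with 1 EGCG library inside the DMSO range. It fell, with a log2 change of -0.40 (SE 0.11, adjusted p = 0.00329), a call that was lost with a pseudocount of 0.1 TPM (-0.42, adjusted p = 0.0827) and with the A4 library added (-0.40, adjusted p = 0.15). A4 is in neither of these Total groups and enters here only through the shared spread. In Th17n Div.1 cells the change was 0.05 (95% interval -0.19 to 0.28, adjusted p = 0.791). With the A4 library added to the DMSO group it was 0.58 (adjusted p = 0.0328). The A4 library, in a plate row that otherwise holds Th17p DMSO Div.1, had Ahr far below the 14.5 to 17.8 TPM of the other libraries of its label. Ahrr did not pass the threshold in either sort, with changes of 0.04 (-0.40 to 0.49) in Total and 0.33 (-0.14 to 0.80) in Div.1 cells, and its libraries scattered from 0.728 to 3.72 TPM in the EGCG Div.1 group. Arnt changed by -0.11 (-0.49 to 0.26) in Total and 0.00 (-0.40 to 0.40) in Div.1 cells. Summed T cell markers, 4 of 5 in the table, ran from 713 to 821 TPM with EGCG, against 553 to 575 TPM with DMSO in Th17n Total cells, and from 748 to 807 TPM with EGCG, against 569 to 616 TPM with DMSO in Th17n Div.1 cells. Summed Th17 markers ran from 7364 to 8497 TPM with EGCG, against 3518 to 4440 TPM with DMSO in Th17n Div.1 cells, without overlap. In Th17n Total cells they ran from 6015 to 7478 TPM with EGCG, against 6413 to 7787 TPM with DMSO, with overlap. The part of these sums in the changes of the 6 genes was not tested.

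**Figure D2:**
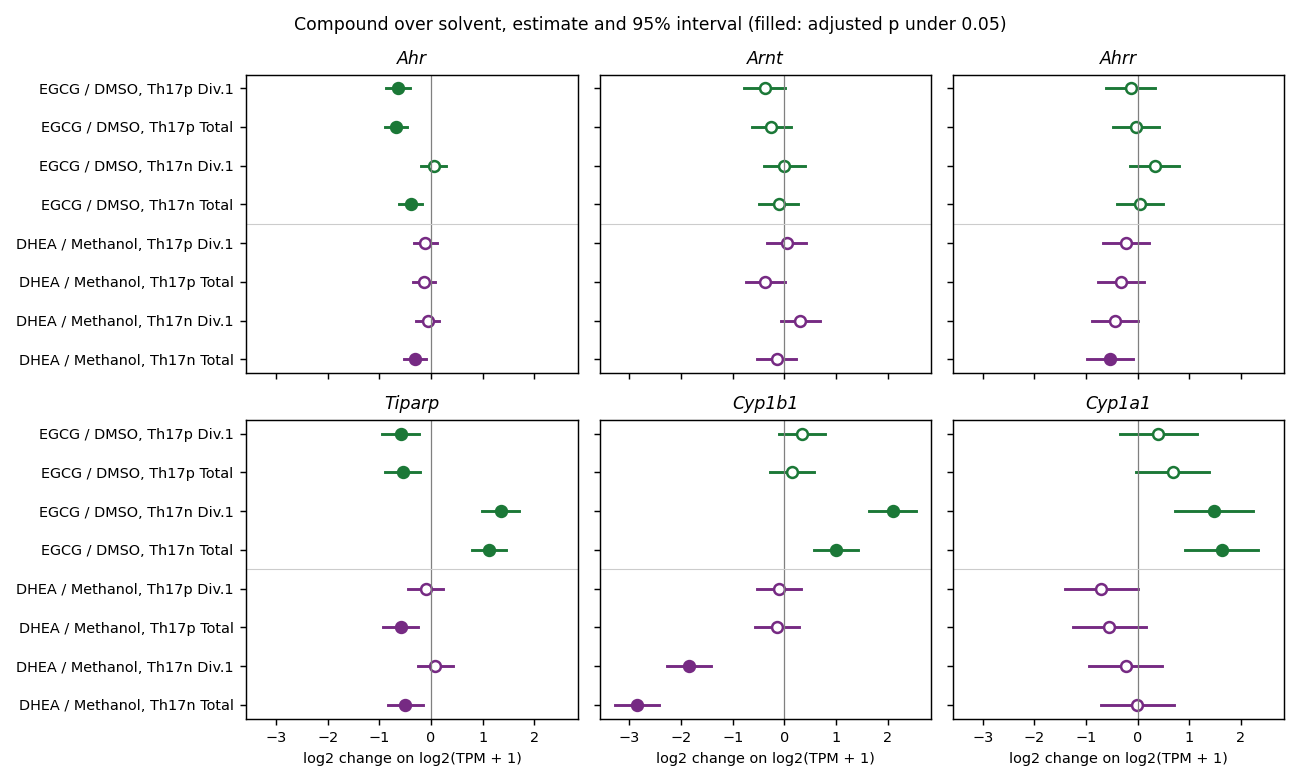
Log2 change of each gene with EGCG over DMSO or DHEA over methanol, by cell type and sort, with 95% intervals from limma and filled points where the adjusted p was under 0.05. Tiparp lay below 0 in Th17p and above 0 in Th17n cells with EGCG, and Cyp1b1 lay above 0 with EGCG and below 0 with DHEA in Th17n cells.

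The difference between the cell types in the response to EGCG was tested as such. For Tiparp the log2 change in Th17p minus that in Th17n was -1.67 (SE 0.24, adjusted p = 2.2e-07) in Total and -1.93 (SE 0.25, adjusted p = 2.44e-08) in Div.1 cells. For Cyp1b1 it was -0.86 (SE 0.30, adjusted p = 0.0323) and -1.76 (SE 0.32, adjusted p = 3.26e-05), but both calls were lost with a pseudocount of 0.1 TPM (-0.44, adjusted p = 0.642, and -1.28, adjusted p = 0.129), and the one in Total cells also without a filter (adjusted p = 0.0591) and with the A4 library added (adjusted p = 0.0576). For Ahr it was -0.70 (SE 0.17, adjusted p = 0.00127) in Div.1 and -0.28 (SE 0.16, adjusted p = 0.214) in Total cells, and the difference in Total cells was -0.98 (adjusted p = 0.00568) with a pseudocount of 0.1 TPM. Cyp1a1 was called in Th17n and not in Th17p cells, and the difference between its responses did not pass the threshold, at -0.95 (95% interval -1.95 to 0.06, adjusted p = 0.193) in Total and -1.08 (-2.14 to -0.02, adjusted p = 0.166) in Div.1 cells. Fitted on those 4 groups only, the difference in Div.1 cells passed (adjusted p = 0.016). By limma 2 of 6 genes passed in Total and 3 of 6 in Div.1 cells, beside 19.9% and 17.5% of all genes tested. Cyp1b1 is in both counts although it reached 1 TPM in no Th17p library. In Th17p Total cells it averaged 0.170 TPM with EGCG and 0.0510 TPM with DMSO, where the log2(TPM + 1) scale understates a change. Its values are therefore no test of a smaller response in Th17p cells. The Cyp1b1 call in Total cells also ended, at -0.83 to -0.77, on leaving out any one of the Th17n DMSO libraries of columns 2 and 4, the Th17n EGCG library of column 4 and the Th17p EGCG libraries of columns 1 and 4.

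DHEA went with a loss of Cyp1b1 transcript in Th17n cells. Cyp1b1 was at 0.674, 0.684, 0.474, 0.250 and 0.559 TPM in Th17n Total cells with DHEA, against 13.2, 21.9, 5.63, 7.41 and 7.96 TPM with methanol. In Th17n Div.1 cells it was at 1.32, 0.411, 0.345, 0.690 and 0.397 TPM with DHEA, against 7.06, 13.4, 2.07, 3.46 and 2.90 TPM with methanol. All DHEA libraries lay below all methanol libraries, and the highest methanol levels in both sorts were those of well columns 6 and 7. The mean with DHEA was 0.0471 times that with methanol in Total and 0.11 times in Div.1 cells. Cyp1b1 fell, with log2 changes of -2.86 (SE 0.21, adjusted p = 2.46e-18) in Total and -1.84 (SE 0.21, adjusted p = 1.03e-10) in Div.1 cells, and without well columns 6 and 7 of -2.48 (adjusted p = 2.25e-17) and -1.36 (adjusted p = 3.09e-09). In Th17p cells Cyp1b1 was listed at 0 in 8 of 10 DHEA libraries and stayed at or below 0.32 TPM with methanol, so a like change was not detectable there.

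Of the 6 genes, 4 fell with DHEA in Th17n Total cells and 1 in Th17n Div.1 cells, where 46.1% and 36.6% of all genes tested were called in either direction. Besides Cyp1b1, Ahr fell to 15.1, 17.3, 14, 14.9 and 15.3 TPM in Th17n Total cells with DHEA, against 19.4, 18.2, 17.3, 20.2 and 21.2 TPM with methanol. Its highest DHEA library met the lowest methanol library, and the log2 change was -0.31 (SE 0.11, adjusted p = 0.0158). That call too was lost with a pseudocount of 0.1 TPM (-0.33, adjusted p = 0.162) and with the A4 library added (-0.31, adjusted p = 0.244). A4 is in neither of these groups and again enters only through the shared spread. In Th17n Div.1 cells Ahr changed by -0.07 (95% interval -0.29 to 0.15).

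The calls for Ahrr and Tiparp with DHEA in Th17n Total cells rested on few libraries. Ahrr was at 1.79, 0.371, 0.526, 0.440 and 1.24 TPM with DHEA, against 2.65, 2.90, 0.684, 0.634 and 2.03 TPM with methanol. Tiparp was at 10.8, 6.98, 8.15, 8.54 and 9.40 TPM with DHEA, against 16.9, 24.5, 10.7, 9.28 and 7.79 TPM with methanol. The groups overlapped for both genes, and the methanol libraries of well columns 6 and 7 were the highest. The log2 changes were -0.53 (SE 0.22, adjusted p = 0.0444) for Ahrr and -0.50 (SE 0.17, adjusted p = 0.0109) for Tiparp. Without well columns 6 and 7 they were -0.25 (adjusted p = 0.448) and -0.07 (adjusted p = 0.737). Leaving out the methanol library of column 6 or of column 7 alone ended the Tiparp call, at -0.40 and -0.27. The Ahrr call ended, at -0.48 to -0.39, on leaving out any one of the DHEA libraries of columns 7, 8 and 9 and the methanol libraries of columns 6, 7 and 10.

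Cyp1a1 did not follow Cyp1b1 with DHEA. In Th17n Total cells Cyp1a1 was at 9.49, 1.93, 3.46, 2.81 and 1.63 TPM with DHEA, against 4.03, 13.8, 2.45, 1.16 and 1.53 TPM with methanol. In Th17n Div.1 cells it was at 10.3, 3.03, 1.5, 5.49 and 2.55 TPM with DHEA, against 7.17, 16.7, 1.71, 2.83 and 2.88 TPM with methanol. The highest DHEA library came from well column 6 and the highest methanol library from column 7 in both sorts. The changes were -0.01 (95% interval -0.72 to 0.70) in Total and -0.23 (-0.94 to 0.48) in Div.1 cells, and in Total cells without columns 6 and 7 it was 0.41 (adjusted p = 0.306).

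**Figure D3:**
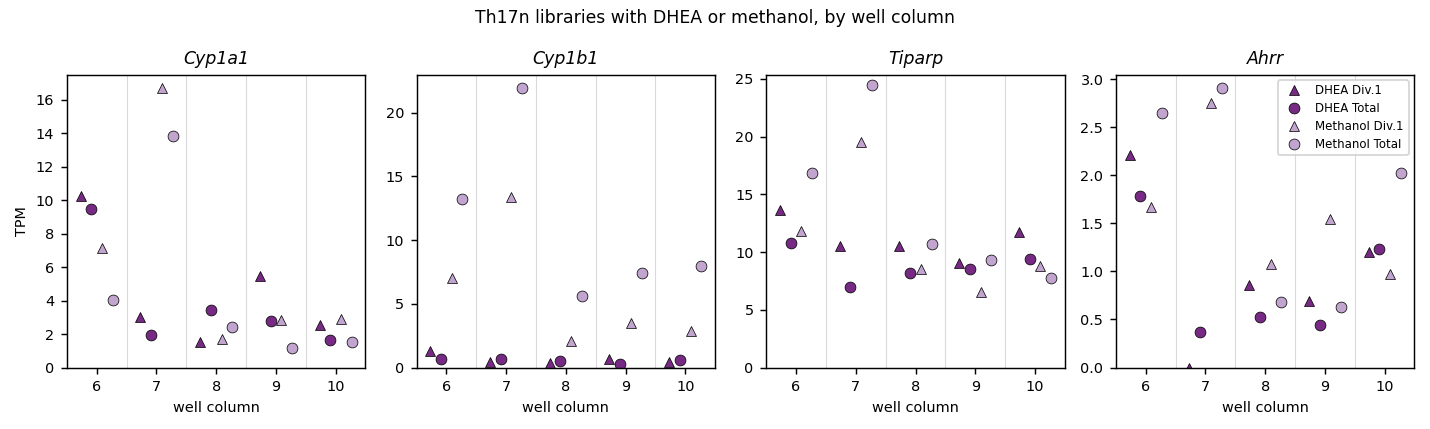
Levels in TPM of Cyp1a1, Cyp1b1, Tiparp and Ahrr in the Th17n libraries with DHEA or methanol, by well column 6 to 10 (triangles Div.1, circles Total). Methanol libraries of column 7 were the highest for Cyp1a1, Cyp1b1 and Tiparp in both sorts, and DHEA libraries of column 6 were the highest DHEA libraries for Cyp1a1.

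In Th17p cells with DHEA, 1 of the 6 genes fell in Total cells and none passed the threshold in Div.1 cells, beside 47.7% and 37.3% of all genes tested. Ahrr and Cyp1b1, which reached 1 TPM in no Th17p library, are among the 6. Tiparp fell to 7.24, 7.62, 8.47, 7.25 and 8.75 TPM in Th17p Total cells with DHEA, against 11.1, 14.3, 13, 10.5 and 12.8 TPM with methanol. The groups did not overlap, and the log2 change was -0.59 (SE 0.17, adjusted p = 0.00252), or -0.52 (adjusted p = 0.00288) without columns 6 and 7. In Th17p Div.1 cells the change of Tiparp was -0.11 (95% interval -0.44 to 0.23). Cyp1a1 was at 0.0675, 0.235, 0, 0.113 and 0.0354 TPM in Th17p Total cells with DHEA, against 1.2, 0.259, 0.411, 0.696 and 0.531 TPM with methanol. Those groups did not overlap either, but at such levels the change was -0.55 (SE 0.35, adjusted p = 0.205), and with a pseudocount of 0.1 TPM it was -1.91 (adjusted p = 0.00278). The receptor changed by -0.14 (-0.36 to 0.08) in Total and -0.11 (-0.33 to 0.11) in Div.1 cells. In Div.1 cells 0 of 6 had an unadjusted limma p under 0.05, but with a pseudocount of 0.1 TPM Cyp1a1 changed by -2.33 (adjusted p = 0.000461). Marker sums moved in these Total cells without overlap. Summed T cell markers ran from 1180 to 1232 TPM with DHEA, against 779 to 821 TPM with methanol, and summed Th17 markers from 100.8 to 290.1 TPM with DHEA, against 1306 to 1931 TPM with methanol. Summed B cell markers, 3 of 3 in the table, ran from 0.99 to 2.41 TPM with DHEA, against 0.166 to 0.626 TPM with methanol, with Ms4a1 at 0 in every methanol library. The epithelial sum ran from 3.97 to 6.62 TPM with DHEA, against 0.827 to 1.99 TPM with methanol. In Th17p Div.1 cells T cell markers ran from 1120 to 1197 TPM with DHEA, against 854 to 955 TPM with methanol, and Th17 markers from 146 to 267 TPM with DHEA, against 836 to 1575 TPM with methanol. Their part in the change of Tiparp was not tested.

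Marker sums moved with DHEA in Th17n Total cells as well. Summed T cell markers ran from 860 to 977 TPM with DHEA, against 554 to 594 TPM with methanol. Summed B cell markers, 3 of 3 in the table, ran from 1.81 to 5.11 TPM against 0.765 to 1.49 TPM, with Ms4a1 at 0 in every DHEA library. Summed CD8 T and NK cell markers, 5 of 5 in the table, ran from 31.3 to 45.8 TPM against 17.6 to 25.9 TPM. Ncr1 was at 0 in every library of both groups and Cd8a at or below 0.557 TPM. Summed Th17 markers ran from 722 to 1408 TPM against 4456 to 5827 TPM. Their part in the changes of the 6 genes was not tested.

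The Cyp1b1 response to DHEA was set between cell types and sorts. Between the cell types Cyp1b1 gives no test, since it had no room to fall in Th17p cells. Among the other genes 0 were called by limma in that difference, or had an unadjusted p under 0.05, beside 14.8% of all genes in Total and 15.9% in Div.1 cells. Ahrr and Cyp1a1 also had little room to fall, at means of 0.378 and 0.620 TPM in Th17p Total cells with methanol. The count therefore does not show that the responses were alike. In Th17n cells the response in Div.1 minus that in Total was 1.02 (SE 0.30, adjusted p = 0.028), for 1 of 6 genes beside 6.79% of all genes, but with a pseudocount of 0.1 TPM it was 1.23 and no longer called, and the call was lost in a fit on these groups alone (adjusted p = 0.265) and with the A4 library added (adjusted p = 0.0598). It was also lost, at 0.75 to 0.95, on leaving out any one of the methanol Div.1 libraries of columns 8, 9 and 10, the methanol Total libraries of columns 6 and 7, the DHEA Total library of column 9 and the DHEA Div.1 library of column 6.

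The responses to the compounds, each over its own solvent, differed from each other in 3 of 6 genes in Th17n cells of each sort, beside 26.5% of all genes in Total and 23.3% in Div.1 cells. For Cyp1b1 the EGCG response minus the DHEA response was 3.87 (SE 0.30, adjusted p = 6.65e-16) in Total and 3.94 (SE 0.31, adjusted p = 7.74e-16) in Div.1 cells. For Tiparp it was 1.62 (SE 0.24, adjusted p = 1.44e-07) and 1.26 (SE 0.24, adjusted p = 4.9e-05), and for Cyp1a1 1.63 (SE 0.50, adjusted p = 0.0101) and 1.71 (SE 0.52, adjusted p = 0.00999). The Cyp1a1 calls were lost with a pseudocount of 0.1 TPM (1.98 and 2.04) and in fits on the groups compared alone, and the one in Total cells also without the methanol library of column 7 (1.18). In Th17p cells Ahr was the 1 gene of 6 that differed, beside 34% of all genes in Total and 31.5% in Div.1 cells. The difference was -0.54 (SE 0.16, adjusted p = 0.00408) in Total and -0.53 (SE 0.16, adjusted p = 0.00712) in Div.1 cells, and both calls were lost with the A4 library added. Other genes passed under other settings. Cyp1a1, at 1.23 (adjusted p = 0.0507) in Total and 1.11 (adjusted p = 0.0947) in Div.1 cells, passed in both sorts with a pseudocount of 0.1 TPM (3.42, adjusted p = 0.000288, and 2.93, adjusted p = 0.003) and in fits on the groups compared alone (adjusted p = 0.00177 and 0.00734), and in Total cells without well columns 6 and 7 (1.23, adjusted p = 0.0116). Tiparp, at -0.48 (adjusted p = 0.125) in Div.1 cells, passed there in the fit on these groups alone (adjusted p = 0.00618) and without well columns 6 and 7 (-0.55, adjusted p = 0.0226). Cyp1b1 passed in both sorts with a pseudocount of 0.1 TPM (1.53 and 1.95), and in Div.1 cells in the fit on these groups alone (0.44, adjusted p = 0.0356), at levels below 1 TPM. The compounds were used at different doses, and these values set the 2 treatments side by side as given.

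Differences between Div.1 and Total Th17p cells in the response to a compound passed in 0 of 6 genes by limma, beside 2.57% of all genes for EGCG and 9.91% for DHEA. At an unadjusted p under 0.05 there were 0 of 6 genes for EGCG and 1 of 6 for DHEA. In a fit on these groups alone Tiparp passed for DHEA, at 0.48 (adjusted p = 0.0288).

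Sorting after the first division changed 1 of the 6 genes in solvent cells. Cyp1b1 was lower in Div.1 than in Total Th17n cells, with a log2 change of -1.04 (SE 0.16, adjusted p = 6.83e-07) over both solvents, beside 21.9% of all genes called. With DMSO it was at 1.42 to 1.95 TPM in Div.1 and 3.56 to 7.95 TPM in Total cells, without overlap. Cyp1a1 did not fall with it, with a change of 0.41 (95% interval -0.10 to 0.93) in Th17n and 0.43 (-0.08 to 0.95) in Th17p cells. In Th17p cells 0 of 6 passed and 0 of 6 had an unadjusted limma p under 0.05, beside 19.4% of all genes called.

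The solvents were not equal for these genes. In Th17n cells Cyp1b1 was higher with methanol than with DMSO by 0.89 (SE 0.21, adjusted p = 0.00382) in Total and 1.07 (SE 0.23, adjusted p = 0.000905) in Div.1 cells, as 1 of 6 genes beside 6.66% and 6.10% of all genes. Without well columns 6 and 7 these values were 0.41 (adjusted p = 0.0834) and 0.47 (adjusted p = 0.0369), and without the methanol library of column 7 alone the change in Total cells was 0.62 and no longer called. That in Total cells was also lost with a pseudocount of 0.1 TPM (1, adjusted p = 0.119), and both were lost in fits on the groups compared alone (adjusted p = 0.148 and 0.225). Ahr in Th17n Div.1 cells was called higher with methanol without well columns 6 and 7 (0.42, adjusted p = 0.0313) and with the A4 library added (0.83, adjusted p = 0.00602). In Th17p Div.1 cells Ahr was lower with methanol, at a log2 change of -0.40 (SE 0.12, adjusted p = 0.0308), as 1 of 6 beside 4.74% of all genes, and that call was lost, at -0.39 to -0.33, on leaving out any one of the DMSO libraries of columns 2 and 3 and the methanol libraries of columns 7, 8 and 9. The same call was lost without well columns 6 and 7 (-0.41, adjusted p = 0.0566), without a filter (adjusted p = 0.052), in a fit on these groups alone (adjusted p = 0.112) and with the A4 library added (adjusted p = 0.403). Tiparp in Th17p Div.1 cells was called lower with methanol without well columns 6 and 7 (-0.46, adjusted p = 0.038) and in a fit on these groups alone (-0.47, adjusted p = 0.0208). In Th17p Total cells 0 of 6 passed and 0 of 6 had an unadjusted limma p under 0.05, beside 6.83%. The solvents sat in different well columns of the plate, so solvent and column cannot be told apart.

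Ordered by mean level, neighbouring groups seldom separated. For Ahr the 8 Th17n groups, from 19.9 ± 1.75 TPM with DMSO in Total to 15 ± 2.15 TPM with EGCG in Total cells, each overlapped the next, as did the 8 Th17p groups, from 1.49 ± 0.291 TPM with DMSO in Div.1 to 0.455 ± 0.160 TPM with EGCG in Total cells. The single gap lay between the cell types. For Tiparp the Th17n EGCG Div.1 group stood apart from the next below it, Th17n methanol Total at 13.8 ± 6.89 TPM. For Cyp1b1 gaps lay below Th17n DMSO Total at 5.11 ± 1.66 TPM and below Th17n DMSO Div.1 at 1.73 ± 0.249 TPM. Arnt, between 8.63 TPM with EGCG in Th17p Div.1 and 12.3 TPM with methanol in Th17n Total cells, Ahrr, at most 1.91 ± 1.24 TPM with EGCG in Th17n Div.1 cells, and Cyp1a1 showed no gap between neighbours.

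Within a cell type the receptor and its targets followed each other only in part. Over the 8 Th17n group means, on the log2(TPM + 1) scale, Ahr had a Pearson r of -0.447 with Cyp1a1, -0.379 with Tiparp and 0.0759 with Cyp1b1. Over the same 8 groups r was 0.833 between Cyp1a1 and Tiparp and 0.961 between Ahrr and Cyp1b1. Over the 8 Th17p group means r was 0.834 between Ahr and Tiparp and 0.908 between Cyp1a1 and Cyp1b1. Cyp1b1 group means in Th17p cells ran only from 0.00347 to 0.451 TPM, so the r of 0.908 rests on levels near 0. Groups share plate columns and solvents, and these values are descriptions with no test.

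The genes most like each member over the 16 group means, among 8041 genes, were taken by Pearson r, over groups that fall into 2 clusters by cell type. For Ahr they were Maf (0.995), Map3k4 (0.991) and Aqp3 (0.991), and for Ahrr Cpox (0.979), Ints4 (0.979) and Exoc3 (0.978). Exoc3 is the neighbour of Ahrr on the same strand, 2385 bases away. Cyp1a1 was most like Slc4a11 (0.957), Cdk5 (0.952) and Eci2 (0.949), and Cyp1b1 most like Marveld1 (0.924), Slc4a2 (0.915) and Tmem176a (0.909). Tiparp was most like Ttll5 (0.827), Eci2 (0.819) and Ap3d1 (0.807), and Arnt most like Rnf19b (0.742), Nupr1 (0.733) and Zfp472 (0.731).

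Chaperone genes of the complex that holds the receptor in the cytoplasm fell with both compounds. The list held 4 genes of the receptor complex, of which Arnt2 is no chaperone gene and did not pass the filter. Of the 3 tested, 3 fell with EGCG in Th17p Total, Th17p Div.1 and Th17n Total cells and 1 in Th17n Div.1 cells. There 44.9%, 45.6%, 35.2% and 34.9% of all genes were called in either direction, so the count in Th17n Div.1 cells is at the share of all genes. The list had a median log2 change of -0.46 in Th17p Total cells against 0.09 over all genes. With DHEA 2 fell in Th17p Div.1 cells and 3 in each of the other three comparisons, beside 36.6% to 47.7% of all genes called, with a median of -0.49 in Th17n Total cells against -0.01 over all genes. Hsp90ab1, an abundant HSP90, fell in all 8 comparisons, with log2 changes of -0.43 (SE 0.03, adjusted p = 3.34e-17) with EGCG and -0.19 (SE 0.03, adjusted p = 3.13e-06) with DHEA in Th17p Total cells. Ptges3, the cochaperone p23, fell, with log2 changes of -0.54 (adjusted p = 3.56e-09) with EGCG and -0.49 (adjusted p = 1.53e-08) with DHEA in Th17n Total cells.

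Other genes described as AHR targets in other tissues were called in both directions with EGCG and mostly higher with DHEA in Th17n Total cells. Of 10 listed, 5 were tested, and with EGCG 2 rose and 2 fell in Th17p Total and in Th17n Total cells, 1 rose and 2 fell in Th17p Div.1 cells, and 1 rose and 1 fell in Th17n Div.1 cells, beside 44.9%, 35.2%, 45.6% and 34.9% of all genes called in that order. With DHEA 3 rose and 0 fell in Th17n Total cells, beside 46.1% of all genes, with a median log2 change of 0.37 against -0.01 over all genes. In the other DHEA comparisons 1 rose and 1 fell in Th17p Total cells, 0 were called by limma in Th17p Div.1 cells, with 1 at an unadjusted p under 0.05, and 1 rose in Th17n Div.1 cells, beside 47.7%, 37.3% and 36.6%. Socs2, a brake on cytokine signalling, averaged 59.7 ± 4.35 TPM in Th17n Total cells with EGCG, against 103 ± 5.10 TPM with DMSO (SD, n = 5 each), a log2 change of -0.78 (SE 0.13, adjusted p = 3.24e-06). It fell in Th17p Total cells too, at -1.86 (SE 0.13, adjusted p = 3.04e-19). Nqo1, a quinone reductase that NRF2 also controls, rose by 0.52 (adjusted p = 0.031) with EGCG and by 0.63 (adjusted p = 0.0059) with DHEA in Th17n Total cells. It reached 1 TPM in only 9 Th17n and 13 Th17p libraries, so these changes lie at low levels. Of the 5 genes tested, 1 passed the filter through Th17n libraries alone. Selenbp1, a selenium binding protein gene at low level, rose with EGCG in all 4 comparisons, by 0.51 to 0.79.

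Of 8 genes described downstream of the receptor in T helper cells, Il10, Entpd1 and Gpr15 passed the filter through Th17n libraries alone and are not counted between the cell types. Of the 5 that passed in each, 4 were lower and 1 higher in Th17p Total cells and 3 lower and 1 higher in Th17p Div.1 cells, beside 57.4% and 60.6% of all genes called. Among the lower ones was Ikzf3, a transcription factor gene, with a log2 change of -3.09 (SE 0.06, adjusted p = 8.51e-51) in Total cells. The higher one was Il22, at 341 ± 60.5 TPM in Th17p and 6.77 ± 5.01 TPM in Th17n Total cells with DMSO (SD, n = 5 each). Il22 moved with the same signs as Tiparp under EGCG. It was lower in Th17p Total cells, at a log2 change of -2.15 (SE 0.41, adjusted p = 1.31e-05), and higher in Th17n Total cells, at 1.44 (SE 0.41, adjusted p = 0.00435), where it averaged 18.3 ± 9.03 TPM with EGCG. Gpr15, a homing receptor gene, fell with DHEA in Th17n cells, with log2 changes of -2.17 (SE 0.15, adjusted p = 1.66e-19) in Total and -1.72 (SE 0.15, adjusted p = 9.02e-15) in Div.1 cells, and also fell with EGCG in Total cells, at -0.82 (SE 0.15, adjusted p = 1.53e-05). With DHEA 46.1% of all genes were called in Th17n Total and 36.6% in Th17n Div.1 cells. Gpr15 is an example and does not stand for the list. Maf, of the same list, had its highest group mean, 43.9 TPM, in Th17n Total cells with DHEA. Over the list, EGCG raised 2 and lowered 2 of 8 genes in Th17n Total cells, beside 35.2% of all genes called, with a median log2 change of -0.10 against 0.05 over all genes.

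Tryptophan is the parent of several natural ligands, and its uptake genes fell with EGCG. Slc7a5, the tryptophan carrier, fell with EGCG in all 4 comparisons, with log2 changes of -0.80 to -0.40, and with DHEA, at -0.46 (adjusted p = 0.000215) in Th17n Total cells. Its partner Slc3a2 fell with EGCG in all 4 comparisons as well, at -0.33 to -0.17. In those comparisons 34.9% to 45.6% of all genes were called in either direction. Of 13 genes listed, 5 were tested, and with DHEA in Th17n Total cells 4 fell, beside 46.1% of all genes called in either direction, with a median of -0.27 against -0.01 over all genes. Tdo2, a tryptophan dioxygenase gene, was among them, at 0.0922 ± 0.0850 TPM with DHEA, against 1.77 ± 0.981 TPM with methanol (SD, n = 5 each). Tdo2 reached 1 TPM in 11 Th17n libraries and in no Th17p library. It passed the filter through the libraries where it was high, so its place in that count is a description and no test.

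**Figure D4:**
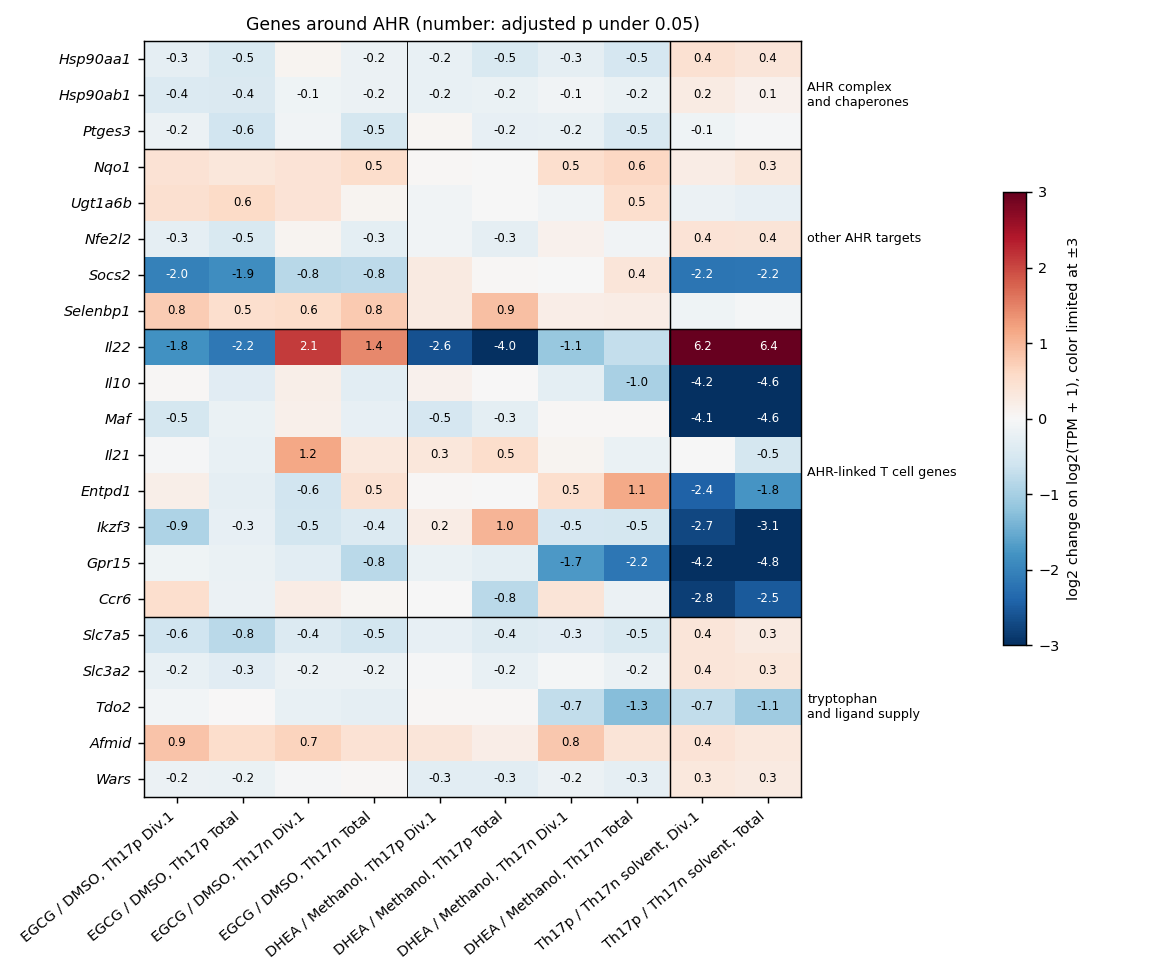
Log2 changes of the tested genes of 4 lists (receptor complex, other targets, T cell genes, tryptophan) in 10 comparisons, coloured from -3 to 3, with the value printed where the adjusted p was under 0.05. Hsp90ab1 was lower in all 8 comparisons of a compound with its solvent, and of the T cell genes Il22 was higher in Th17p than in Th17n cells of each sort.

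Among 12 tested relatives of Tiparp in the PARP family, Parp8 rose with EGCG in all 4 comparisons, by 0.58 (adjusted p = 0.00046) in Th17p Total and 0.82 (adjusted p = 3.58e-06) in Th17n Total cells, so unlike Tiparp it rose in both cell types. In Th17n cells 5 of the 12 rose and 1 fell with EGCG in each sort, beside 35.2% of all genes called in Total and 34.9% in Div.1 cells, with medians of 0.32 in Total and 0.13 in Div.1 cells against 0.05 and 0.11 over all genes. Among 6 tested partners of Arnt of 10 listed, Hif1a, the oxygen-sensing factor, rose with DHEA by 0.88 (SE 0.10, adjusted p = 2.13e-11) in Th17p Total cells. There 47.7% of all genes were called, and Hif1a is an example that does not stand for the list. With EGCG no more than 1 of those 6 was called in any comparison, beside 34.9% to 45.6% of all genes.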

How the data were processed

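RNA was captured by its polyA tail from CFSE-labelled mouse T cells, per the labels' protocols, and the authors trimmed reads with Trimmomatic and quantified them with kallisto on mm10, per the submitters' processing notes, with versions not given in the sources used here. The deposited table gives TPM by symbol and library. The step from transcripts to symbols and the use of strand are not given in the sources used here, and depth is unknown. The series description gives each compound its own solvent. EGCG was set against DMSO and DHEA against methanol, which share well columns, and this pairing is the reading used here.

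Of 79 libraries, 78 were used in 16 groups taken from the titles. Genes with at least 1 TPM in at least 4 libraries were kept, 10672 of 20465. A model of 16 group means was fitted to log2(TPM + 1) with limma 3.58.1 in R 4.3.3, with a trend in the empirical Bayes step and 62 residual degrees of freedom, and gave 28 two-sided comparisons. P-values were adjusted by Benjamini-Hochberg over all genes kept, within a comparison, with calls at an adjusted p below 0.05. The fit was tested on simulated data. Tables and figures were made with Python 3.11.15, pandas 2.3.3, numpy 2.4.6 and matplotlib 3.10.9. Of 152 pairs of libraries within groups, 0 were identical. Where libraries of a group share a mouse or a culture is not stated, so p-values measure the spread between libraries.

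The members and the gene lists were chosen with earlier results of these data known. Some list and marker genes are not reported here. All 6 members are named, as well as the 3 genes most like each by Pearson r over the 16 group means of log2(TPM + 1), and list genes as examples. The replicate number is the well column of the title. Samples with the same number deviated together by a correlation of -0.002 to 0.315 between paired groups, and in 0 of 20 pairs of groups did every number exceed 0.1, so the numbers were not taken as pairs. Gene positions are those of GENCODE M21 on GRCm38, the assembly of mm10, and promoters those of RefSeq on GRCm38.p6. Alternatives were a pseudocount of 0.1 TPM, no filter, rescaling by median ratio, fits on the groups compared alone, the replicate number as a block, the A4 library added under its label and leaving out each library. Leaving out well columns 6 and 7 was chosen after seeing the data.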

Additional observations from a re-analysis of the deposited data

Results flagged for a closer look

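Single libraries stood far from the rest of their group in 6 of 96 combinations of gene and group, where chance gives about 1 in 20. Cyp1a1 was at 9.49 TPM in the Th17n DHEA Total library of column 6 and at 13.8 TPM in the Th17n methanol Total library of column 7. Arnt was at 7.11 TPM in the Th17n EGCG Div.1 library of column 2. In Th17p cells with DHEA, Ahrr was at 0.339 TPM and Cyp1b1 at 0.0174 TPM in the Total library of column 6, and Cyp1b1 at 0.0546 TPM in the Div.1 library of column 10. The last 3 of these are levels far below 1 TPM.

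Responses differed between groups in 17 of 72 tests of a difference (limma, adjusted p under 0.05 over all genes). In the same comparisons 2.57% to 34% of all genes were called in either direction, so the count alone is no result about these genes. It also takes in the Cyp1b1 differences between the cell types, which are no test for the reasons given below. For EGCG, Th17p minus Th17n, the differences in log2 change were -1.67 for Tiparp and -0.86 for Cyp1b1 in Total cells, and -1.93 for Tiparp, -1.76 for Cyp1b1 and -0.70 for Ahr in Div.1 cells. Cyp1b1 reached 1 TPM in no Th17p library, so its values here are no test of a smaller response in Th17p cells. Tiparp was lower with EGCG in 5 of 5 Th17p libraries of each sort than in every DMSO library, and higher in 5 of 5 Th17n libraries of each sort. For EGCG, Div.1 minus Total in Th17n cells, the difference was 1.09 for Cyp1b1.

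For DHEA, Th17p minus Th17n, the difference for Cyp1b1 was 2.72 in Total and 1.74 in Div.1 cells. Cyp1b1 was near 0 in Th17p cells with methanol and had no room to fall there, so these 2 values are no test of the response. For DHEA, Div.1 minus Total in Th17n cells, it was 1.02. For the EGCG response minus the DHEA response in Th17n cells, the differences were 3.87 and 3.94 for Cyp1b1, 1.62 and 1.26 for Tiparp, and 1.63 and 1.71 for Cyp1a1, in Total and in Div.1 cells in that order. In Th17p cells they were -0.54 in Total and -0.53 in Div.1 cells for Ahr.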

How the results depend on the processing

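In the 12 comparisons of compounds, cell types and sorts, 1367 of 1404 recomputed changes of the 6 genes kept their side of the threshold and, if called, their direction, 19 lost the call and 18 gained one, and no called change reversed; 48 uncalled changes changed sign. With a pseudocount of 0.1 TPM, Cyp1a1 with EGCG in Th17p Total cells was 1.52 (adjusted p = 0.0195), Cyp1b1 with EGCG in Th17p Div.1 cells 1.28 (adjusted p = 0.00785), and with DHEA Cyp1a1 was -1.91 in Th17p Total and -2.33 in Th17p Div.1 cells and Ahrr -1.38 in Th17p Total cells (adjusted p = 0.0284), all gained. Under it Ahr in Th17n Total cells was -0.42 with EGCG and -0.33 with DHEA, and Ahrr with DHEA -0.93, all lost. Alone, the groups compared gave calls for Cyp1a1 in Th17p cells, 0.68 with EGCG in Total and -0.55 and -0.71 with DHEA in Total and Div.1 cells, and for Arnt with DHEA, -0.37 in Th17p Total and 0.31 in Th17n Div.1 cells, and for Tiparp in Div.1 against Total Th17p cells, -0.20; they lost Tiparp (-0.50) and Ahrr (-0.53) with DHEA in Th17n Total cells. Rescaling gained Arnt with EGCG in Th17p Div.1 cells, -0.49, and lost Ahrr with DHEA in Th17n Total cells, -0.51, which was also lost without a filter, -0.53. With the A4 library added, Ahr in Th17n cells was -0.40 with EGCG and -0.31 with DHEA in Total cells, both lost, and 0.58 with EGCG in Div.1 cells, gained (adjusted p = 0.0328). The A4 library held Ahr far below the other libraries of its label. It is in no Total group, so in the Total comparisons it altered only the spread shared by all groups. Without well columns 6 and 7, Ahrr and Tiparp with DHEA in Th17n Total cells were -0.25 and -0.073, Tiparp between the cell types was 0.24 and 0.25, and genes called between Div.1 and Total Th17n cells numbered 1395, against 2337. Leaving out 1 library at a time moved a call for Arnt with EGCG in Th17p Div.1 cells (-0.52 to -0.26), Ahrr with DHEA in Th17n Total (-0.70 to -0.39) and Div.1 cells (-0.64 to -0.22), Tiparp with DHEA in Th17n Total cells (-0.66 to -0.27) and Tiparp between Div.1 and Total Th17n cells (-0.34 to -0.12). With the replicate block, a number that is only shared here, Ahr with EGCG in Th17p Total cells was -0.68 (adjusted p = 5.14e-07), and no call of these 12 comparisons changed for the 6 genes; in the others that were fitted with it, Cyp1a1 gained the EGCG minus DHEA response in Th17p Total cells (1.23, adjusted p = 0.0259) and Ahr the EGCG response in Div.1 minus Total Th17n cells (0.44, adjusted p = 0.0437). The block gave 669 genes, against 274, for the EGCG response in Div.1 minus Total Th17p cells and 1280, against 725, for the DHEA response in Div.1 minus Total Th17n cells, and that count was 27 without well columns 6 and 7. In the other 16 comparisons 41 of 2256 changes lost a call and 35 gained one. Genes called with EGCG numbered 3601 higher and 1270 lower in Th17p Div.1 cells, against 2430 and 2241 after rescaling, and 2999 and 723 in Th17n Div.1 cells, against 1642 and 1671. Apart from the shared spread with A4, the cause was not tested for any of these. Depth is unknown, so levels under 1 TPM, which take in all Th17p levels of Cyp1b1 and Ahrr, have no counting error here.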

Other observations

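The library of well A4, labelled Th17n DMSO Div.1, had Ahr at 1.67 TPM, Cyp1b1 at 0.0584 TPM, Tiparp at 14.6 TPM, Cyp1a1 at 1.36 TPM, Ahrr at 0.721 TPM and Arnt at 8.79 TPM. The 4 other libraries of that label held Ahr between 14.5 and 17.8 TPM, and the 4 libraries of the Th17p DMSO Div.1 group held it between 1.23 and 1.85 TPM.

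Some genes found by likeness are neighbours on a chromosome. Cdk5, among the genes most like Cyp1a1, lies at chr5:24418241-24423530, and Slc4a2, among those most like Cyp1b1, at chr5:24423837-24440950. Exoc3, at chr13:74169488-74208732, lies 2385 bases from Ahrr on the same strand. Whether reads are shared between these neighbours was not tested.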
